A study of Mus musculus with 24 samples.

Results

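The 9 genes described here, Lyve1, Folr2, Cbr2, Fcna, Fcrls, Tmem119, Cd209f, Igfbp4 and Ednrb, are used as markers of tissue-resident macrophages of the Lyve1 and Folr2 type. They were chosen by gene symbol, and all 9 were found among the 49022 genes that both deposited count tables hold. Interstitial macrophages lie in the lung wall beside vessels, airways and nerves, while alveolar macrophages lie in the air spaces. In mice, interstitial macrophages with much Lyve1 and Folr2 and little MHC class II are the perivascular subset, and after lung injury monocytes enter and become macrophages in the same compartment.

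Poly(A) RNA was sequenced from macrophages sorted from digested lungs, in 24 libraries that form 8 groups of 3. From wild-type C57BL/6J mice came the CD11b+ SiglecF- gate, interstitial macrophages (IMs), taken on day 7 of bleomycin injury (3 µg/g, into the trachea) or 7 days after PBS. Mice with an Spp1-EGFP knock-in, in which EGFP reports the osteopontin gene Spp1, were the source of IMs with EGFP (EGFP+) on days 7 and 14 of injury and of IMs without it (EGFP-) on day 7. The CD11b- SiglecF+ gate, alveolar macrophages (AMs), was sorted for EGFP+ cells from the same knock-in: 7 days after PBS, and on days 14 and 30 of bleomycin injury. Wild-type cells were not sorted by EGFP, ages are not given, and the labels do not say whether libraries came from separate or pooled mice, so p-values measure the spread between these libraries.

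The wild-type IM, day 7 reporter IM and PBS AM libraries stand in one table and the others in a second. Total counts ran from 13450053 to 24580620 per library. Itgam, which encodes CD11b, averaged 218 to 379 CPM (counts scaled to a common library total) in the IM groups and 7.32 to 26.1 CPM in the AM groups, and Siglecf averaged 7.42 to 25.1 CPM in the IM groups and 122.5 to 415 CPM in the AM groups. More than a single gene entry carries the symbol Itgam, and its values throughout are those of the first entry by gene ID. The libraries of EGFP+ IMs at day 14 stood apart from one another. Their highest value was 1.34 times their lowest in the median gene, against 1.10 to 1.24 times in the other groups. Bulk values cannot tell fewer cells of a type from less RNA per cell.

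Among the proteins of these genes, Lyve1 is a hyaluronan receptor that lymphatic endothelium also carries. Folr2 is folate receptor beta, Cd209f is a C-type lectin of the mouse Cd209 family and Fcrls is a scavenger receptor-like relative of the Fc receptors, best known from mouse microglia. Tmem119 is a membrane protein also best known from microglia, and Ednrb is the endothelin receptor type B, which endothelium also carries. Fcna is ficolin-A, a secreted lectin that starts the lectin pathway of complement. Igfbp4 is a secreted protein that binds insulin-like growth factors and that fibroblasts also make. Cbr2 is a carbonyl reductase of mouse lung, which club cells of the airway epithelium also make.

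In the deposited GRCm38 coordinates all 9 are protein-coding genes, on the minus strand except Igfbp4. The antisense gene Gm10602 overlaps Folr2, and the antisense gene Fcnaos overlaps Fcna. Whether counting used strand is not stated, so reads of either pair cannot be told apart in any comparison. The tables place Lyve1 (ENSMUSG00000030787) at chr7:110850607-110863239, Folr2 (ENSMUSG00000032725) at chr7:101839988-101857194, Cbr2 (ENSMUSG00000025150) at chr11:120729489-120732114, and Fcna (ENSMUSG00000026938) at chr2:25624666-25628030. They place Fcrls (ENSMUSG00000015852) at chr3:87250758-87263738, Tmem119 (ENSMUSG00000054675) at chr5:113793729-113800516, Cd209f (ENSMUSG00000051906) at chr8:4102787-4105835, Igfbp4 (ENSMUSG00000017493) at chr11:99041244-99054392 and Ednrb (ENSMUSG00000022122) at chr14:103814625-103844173, whose end is 103844402 in the table with the day 14 and day 30 libraries.

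RefSeq promoter sequences on GRCm38.p6 were found for 7 of the 9 genes, without Lyve1 and Tmem119. The bases just upstream of 4 of them are printed on the minus strand, 5′ to 3′, and none lies within the deposited gene model. Folr2 had the largest increase among EGFP+ IMs, Cbr2 and Cd209f had the largest decreases after bleomycin, and Fcna had the largest increase among AMs. Capitals mark a MAF half-site.
Folr2, chr7:101857195-101857440: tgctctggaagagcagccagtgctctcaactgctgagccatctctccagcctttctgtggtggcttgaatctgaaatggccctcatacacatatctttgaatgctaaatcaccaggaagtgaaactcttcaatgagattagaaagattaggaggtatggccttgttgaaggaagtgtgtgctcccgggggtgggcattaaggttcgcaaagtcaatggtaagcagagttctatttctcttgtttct
Cbr2, chr11:120732115-120732271: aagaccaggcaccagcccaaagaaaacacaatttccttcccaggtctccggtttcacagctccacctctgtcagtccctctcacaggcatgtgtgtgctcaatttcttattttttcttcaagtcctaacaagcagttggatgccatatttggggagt
Cd209f, chr8:4105836-4106014: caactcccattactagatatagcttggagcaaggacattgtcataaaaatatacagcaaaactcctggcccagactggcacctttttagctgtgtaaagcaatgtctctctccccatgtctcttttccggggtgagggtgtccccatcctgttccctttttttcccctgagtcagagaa
Fcna, chr2:25628031-25628224: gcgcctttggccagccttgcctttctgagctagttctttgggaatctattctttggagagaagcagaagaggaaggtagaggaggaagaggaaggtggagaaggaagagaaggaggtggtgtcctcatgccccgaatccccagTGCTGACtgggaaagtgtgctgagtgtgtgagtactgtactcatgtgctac
Motifs were sought on both strands in the 250 bases before the RefSeq start sites. They were the PU.1 core GAGGAAGT, present in 2.4% of 32841 promoters, and the MAF half-site TGCTGAC, present in 3.8%. Both name the binding sites of factors that work in macrophages, and the 2 strings do not overlap each other. The match in Fcna, at -107 to -101 from the start, was the 1 match among the windows of these genes.

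After PBS, every one of the 9 genes was higher in the IM gate than in the AM gate. This is no check of the label. Markers of other cells were higher too, and the genes were chosen with earlier results of these data known. The 9 genes called higher stand beside 39.2% of all 15983 genes tested that were higher and 39.7% that were lower (edgeR's quasi-likelihood test, Benjamini-Hochberg adjusted p under 0.05). The IMs were wild-type and the AMs were EGFP+ knock-in cells, so that gate, strain and EGFP sort cannot be told apart. Cbr2 had 403, 258 and 276 CPM in PBS IMs, against 8.06, 9.64 and 7.57 CPM in PBS AMs. Fcrls had 91.4, 68.4 and 52.2 CPM in PBS IMs, against 2.14, 1.51 and 1.87 CPM in PBS AMs. For both genes, the lowest IM library lay far above the highest AM library. The log2 fold change was 5.20 ± 0.26 (SE) for Cbr2 (edgeR adjusted p = 2.9e-05) and 5.26 ± 0.31 for Fcrls (edgeR adjusted p = 1.4e-05). The smallest of the 9 log2 fold changes was that of Fcna, 2.83 ± 0.35, and no library of one gate overlapped the other gate for any of the 9 genes. Markers of other cells also differed, with 9 of 11 lung epithelial markers higher (sums of 4502 to 6682 CPM in PBS IMs and 394.5 to 399.9 CPM in PBS AMs) and all 9 tested fibroblast markers higher (166.8 to 224 CPM in PBS IMs and 8.77 to 12.7 CPM in PBS AMs). All 10 neutrophil markers (7447 to 8879 CPM in PBS IMs and 133 to 207 CPM in PBS AMs), all 12 nonclassical monocyte markers (5840 to 6483 CPM in PBS IMs and 1845 to 1860 CPM in PBS AMs) and all 9 tested T and NK cell markers were higher too. The part of these markers in the differences was not tested.

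Levels of different genes were compared as RPKM, which is CPM per kilobase of exon. In PBS IMs the mean level of Cbr2 was 235 ± 59.6 RPKM (SD, n = 3), and Fcrls followed at 30.3 ± 8.43 RPKM. Igfbp4 had a level of 11.5, Folr2 of 7.93, Tmem119 of 4.93, Fcna of 2.73, Lyve1 of 2.04 and Ednrb of 1.84 RPKM, while Cd209f had 0.768 RPKM. Lyve1 and Cd209f lay near the low end, at 276 and 71 counts over the 3 PBS IM libraries. Cbr2 made up 65.6% of the summed CPM of the 9 genes in that group.

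**Figure D1:**
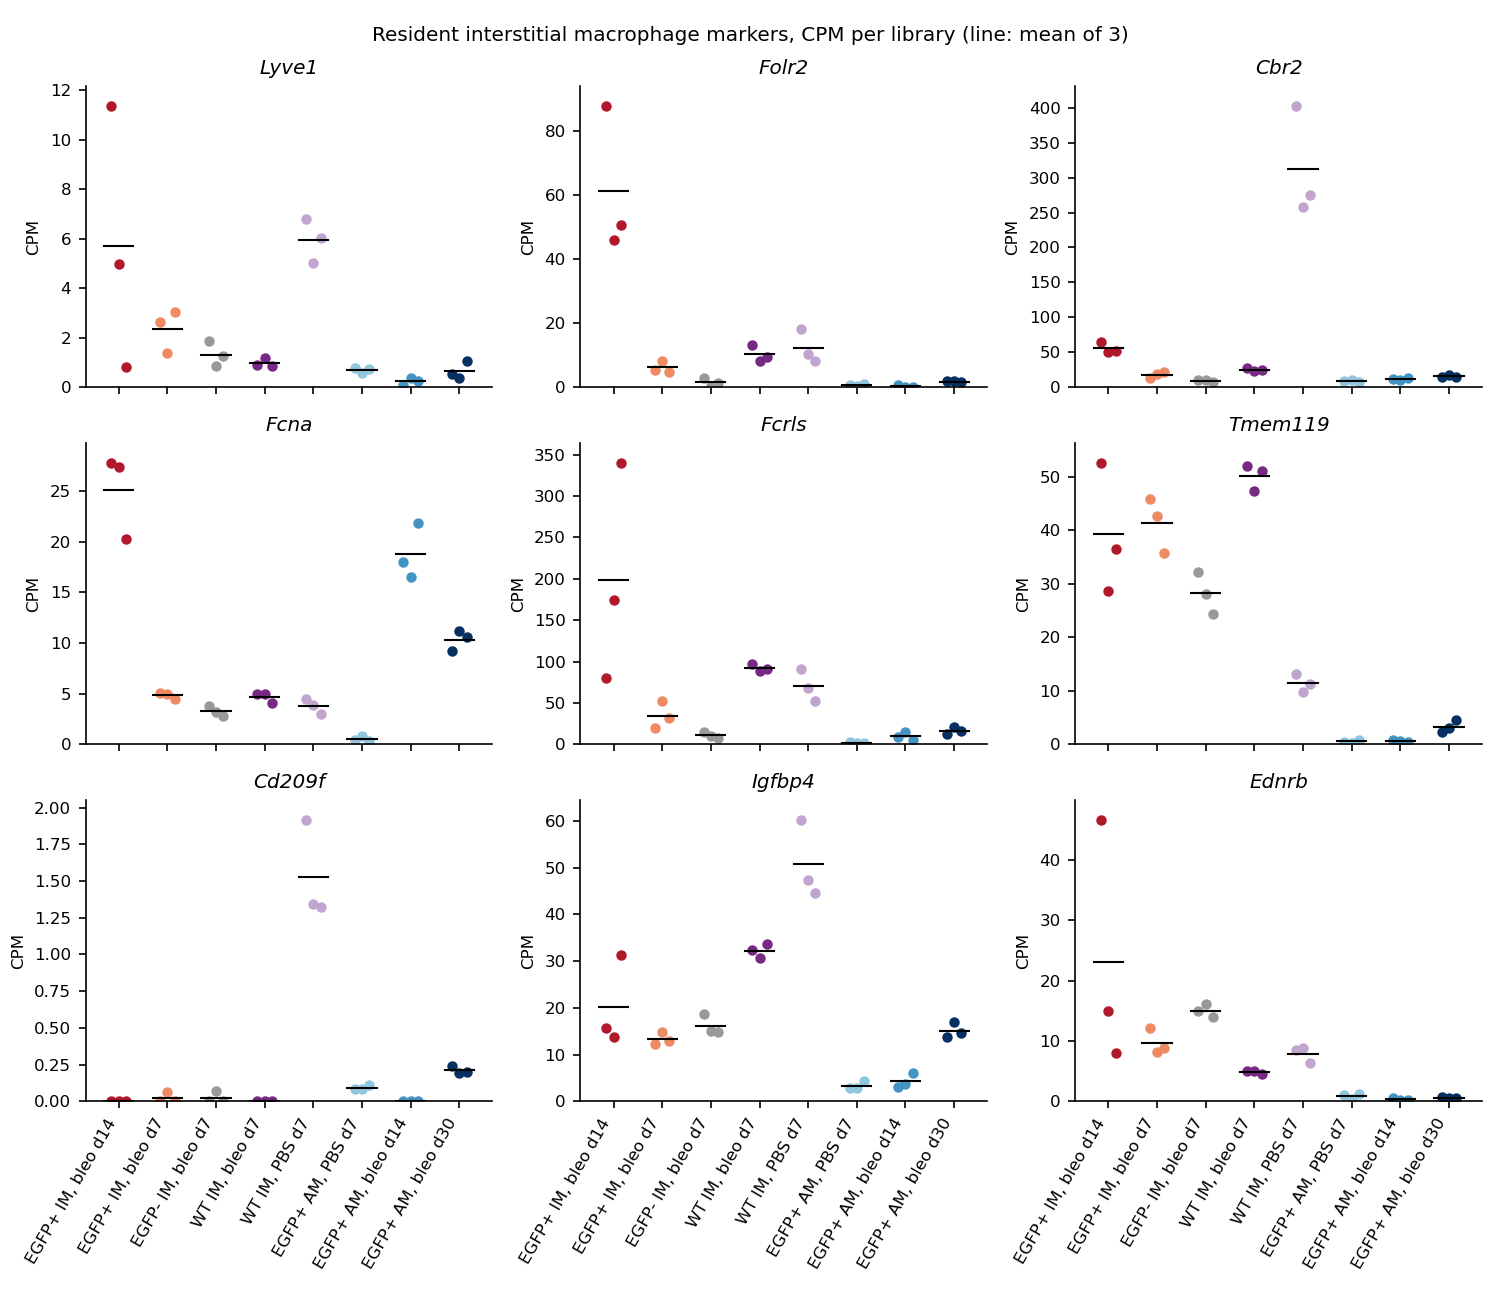
CPM of each of the 9 genes (linear vertical axes from 0) in the 24 libraries, with 1 point per library and a line at the mean of each group of 3. Cbr2 and Cd209f peaked in wild-type PBS IMs, Folr2 and Fcrls in EGFP+ IMs at day 14, and Fcna was high in both day 14 EGFP+ groups.

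Bleomycin split the 9 genes in wild-type IMs at day 7. The surface genes Lyve1, Cd209f and Ednrb fell, as did Cbr2 and Igfbp4, while Tmem119 rose and Folr2, Fcna and Fcrls were not called. The 5 genes called lower stand beside 34.5% of the 15645 genes tested, and the 1 called higher beside 35.6%. The median log2 fold change was -0.70 for the 9 genes and 0 for all genes tested. Markers of other blood cells in the gate moved in both directions. Of 10 T and NK cell markers, 5 were higher and 1 was lower. Of 13 classical monocyte markers, 7 were higher and 6 were lower. All 10 neutrophil markers were lower, with sums of 1594 to 1647 CPM in bleomycin IMs and 7447 to 8879 CPM in PBS IMs. All 12 nonclassical monocyte markers were lower, at 2034 to 2196 CPM in bleomycin IMs and 5840 to 6483 CPM in PBS IMs, and all 8 B cell markers, at 461.6 to 540.5 CPM in bleomycin IMs and 1681 to 1887 CPM in PBS IMs. Their part in the results of the 9 genes was not tested.

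Lyve1 had 0.907, 1.18 and 0.868 CPM in bleomycin IMs, against 6.80, 5.01 and 6.01 CPM in PBS IMs. The groups were far apart, and the log2 fold change was -2.62 ± 0.26 (SE, edgeR adjusted p = 3.5e-09). Lymphatic endothelial markers summed to 44.4 to 53.4 CPM in bleomycin IMs and 32.5 to 37.8 CPM in PBS IMs. Of the 5 tested, 3 were lower and 1 was higher, with a median log2 fold change of -2.07, and their defining gene Prox1 was at 0.286 CPM in bleomycin IMs and 1.16 CPM in PBS IMs. The part of lymphatic RNA in the Lyve1 result was not tested. Cd209f had no count in any of the 3 bleomycin libraries, against 29, 22 and 20 counts in the PBS libraries. Against a floor of 3 counts over the group, it was at least 25.6-fold lower (edgeR adjusted p = 2.5e-07). Ednrb had 4.96, 4.99 and 4.53 CPM in bleomycin IMs, against 8.45, 8.80 and 6.27 CPM in PBS IMs. This decrease was smaller (log2 fold change -0.75 ± 0.17, edgeR adjusted p = 5.6e-04), and it was not called when all 24 libraries shared 1 fit (-0.77, edgeR adjusted p = 0.131). Blood endothelial markers moved with it, with 7 of 9 tested lower and none higher, and sums of 56.2 to 63.2 CPM in bleomycin IMs and 112 to 116 CPM in PBS IMs. Their part in the Ednrb result was not tested.

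Cbr2, the enzyme, had 27.1, 22.6 and 23.9 CPM in bleomycin IMs, against 403, 258 and 276 CPM in PBS IMs. No gene of the 9 lost more CPM (log2 fold change -3.72 ± 0.24, edgeR adjusted p = 1.5e-04). Lung epithelial markers moved with it. They summed to 140 to 181 CPM in bleomycin IMs and 4502 to 6682 CPM in PBS IMs, with 9 of 11 genes lower, 2 higher and none at 0 in either group. The PBS library with the most Cbr2 also had the highest epithelial sum, and the club cell gene Scgb1a1 averaged 42.4 CPM in bleomycin IMs and 3160 CPM in PBS IMs. The part of epithelial RNA in the Cbr2 result was not tested. Igfbp4 had 32.4, 30.6 and 33.6 CPM in bleomycin IMs, against 60.3, 47.4 and 44.6 CPM in PBS IMs (log2 fold change -0.70 ± 0.09, edgeR adjusted p = 1.9e-06). Fibroblast markers also fell, all 9 of those tested, and summed to 39.4 to 43.5 CPM in bleomycin IMs, with Col13a1 at 0, and 166.8 to 224 CPM in PBS IMs. Their part in the Igfbp4 result was not tested.

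Tmem119 ran the other way. It had 52.0, 47.3 and 51.1 CPM in bleomycin IMs, against 13.1, 9.84 and 11.3 CPM in PBS IMs, so that every bleomycin library was above every PBS library (log2 fold change 2.09 ± 0.10, edgeR adjusted p = 5.2e-15). Folr2 had 13.3, 8.24 and 9.43 CPM in bleomycin IMs, against 18.1, 10.4 and 8.32 CPM in PBS IMs, and the ranges overlapped (log2 fold change -0.30 ± 0.36, edgeR adjusted p = 0.502). Fcna also overlapped, at 4.68 ± 0.508 CPM in bleomycin IMs and 3.75 ± 0.732 CPM in PBS IMs (SD, n = 3 each). Fcrls averaged 91.9 ± 4.29 CPM in bleomycin IMs and 70.7 ± 19.7 CPM in PBS IMs (edgeR adjusted p = 0.241). Its call turned on the first PBS library: without it the log2 fold change was 0.56 (edgeR adjusted p = 4.8e-05).

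The other 23 tested genes of resident interstitial macrophages were split as well, with 12 called higher and 9 lower after bleomycin. Cd36, a scavenger receptor for lipids, fell to 191 ± 4.26 CPM in bleomycin IMs, against 511 ± 14.5 CPM in PBS IMs. Ccl24, a chemokine for eosinophils, rose to 34.1 ± 3.14 CPM in bleomycin IMs, against 2.50 ± 0.338 CPM in PBS IMs. Among relatives and partners of the 9 genes, 14 of 21 tested fell and 3 rose. The decreases included Fcnb, the ficolin-B gene, at 0.397 ± 0.0358 CPM in bleomycin IMs and 6.22 ± 1.10 CPM in PBS IMs. They also included Cd209b, at 0.340 ± 0.104 CPM in bleomycin IMs and 3.39 ± 0.291 CPM in PBS IMs, and the hyaluronan receptor gene Cd44. The 3 increases were Igf1, the growth factor that Igfbp4 binds, Cd209e, and Dcxr, a reductase related to Cbr2. Igf1 averaged 54.5 ± 1.47 CPM in bleomycin IMs and 26.1 ± 7.92 CPM in PBS IMs.

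EGFP- IMs at day 7 after bleomycin were also set against the same wild-type PBS libraries, a comparison in which treatment, strain and EGFP sort cannot be told apart. Of the 9 genes, 6 were lower, beside 29.5% of the 15570 genes tested, and 2 were higher, beside 29.0%. Folr2 and Fcrls were among the 6 here. Fcrls had 15.3, 9.52 and 7.14 CPM in EGFP- IMs, against 91.4, 68.4 and 52.2 CPM in wild-type PBS IMs (log2 fold change -2.67 ± 0.37, edgeR adjusted p = 0.00339). Folr2 had 2.71, 0.490 and 1.25 CPM in EGFP- IMs, against 18.1, 10.4 and 8.32 CPM in wild-type PBS IMs (-2.98 ± 0.58, edgeR adjusted p = 0.00722), a call lost without the third EGFP- library (edgeR adjusted p = 0.0562). The other 4 were Lyve1, Cbr2, Cd209f and Igfbp4, and 9 of 11 epithelial and all 9 tested fibroblast markers were lower as well, a part in these results that was not tested. Ednrb had 15.02, 16.1 and 13.9 CPM in EGFP- IMs, against 8.45, 8.80 and 6.27 CPM in wild-type PBS IMs, and was higher (1.006 ± 0.141, edgeR adjusted p = 1.8e-06), whereas its log2 fold change in wild-type bleomycin IMs over the same PBS libraries was -0.75. Those bleomycin groups were not tested against each other. Tmem119 was the other gene called higher, at 28.2 ± 3.96 CPM in EGFP- IMs and 11.4 ± 1.65 CPM in wild-type PBS IMs. Of 9 tested blood endothelial markers, 8 were lower in EGFP- IMs and 1 was higher. Their part in the Ednrb result was not tested here either.

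Within injured reporter lungs at day 7, the EGFP gates differed in 4 of the 8 genes that could be tested, all higher in EGFP+ IMs. Of all 14967 genes, 17.2% were called higher and 17.6% lower. Cd209f had 1 count in all in each gate and was not tested. Folr2 had 5.49, 8.25 and 4.71 CPM in EGFP+ IMs, against 2.71, 0.490 and 1.25 CPM in EGFP- IMs. The gates did not overlap, and the log2 fold change was 2.01 ± 0.48 (SE, edgeR adjusted p = 0.0121), but the call was lost without the third EGFP- library (1.91, edgeR adjusted p = 0.0536) and without the filter on low counts (2.07, edgeR adjusted p = 0.05). Cbr2 had 13.7, 18.7 and 21.6 CPM in EGFP+ IMs, against 9.61, 10.01 and 7.79 CPM in EGFP- IMs (0.93 ± 0.16, edgeR adjusted p = 0.00108), and it kept its call without any single library. Epithelial markers summed to 90.5 to 209 CPM in EGFP+ IMs and 128 to 140 CPM in EGFP- IMs, where 3 of 11 were lower and none was higher in the EGFP+ gate. Their part in this Cbr2 result was not tested.

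Fcna and Tmem119 differed less between the gates. Fcna averaged 4.82 ± 0.313 CPM in EGFP+ IMs and 3.26 ± 0.490 CPM in EGFP- IMs (log2 fold change 0.52 ± 0.17, edgeR adjusted p = 0.0332). Tmem119 averaged 41.4 ± 5.21 CPM in EGFP+ IMs and 28.2 ± 3.96 CPM in EGFP- IMs (0.51 ± 0.18, edgeR adjusted p = 0.0436). Fcna lost its call without the first or second EGFP+ library or the second or the third EGFP- library, and Tmem119 lost it without the first or second EGFP+ library or any EGFP- library. Fcna was also not called by DESeq2 (adjusted p = 0.0574), nor Tmem119 with total-count scaling (edgeR adjusted p = 0.0513). Fcrls had 19.5, 52.8 and 31.3 CPM in EGFP+ IMs, against 15.3, 9.52 and 7.14 CPM in EGFP- IMs, and was not called (1.66 ± 0.65, edgeR adjusted p = 0.0842), though it was by DESeq2 (adjusted p = 0.0352) and in the edgeR fit of all libraries (adjusted p = 0.0175). Ednrb had 12.1, 8.25 and 8.81 CPM in EGFP+ IMs, against 15.02, 16.1 and 13.9 CPM in EGFP- IMs. That log2 fold change, -0.67 ± 0.54, was not called (edgeR adjusted p = 0.367), though it was in a fit of these 2 groups alone (-0.63, edgeR adjusted p = 0.00147), which does not share its spread with the day 14 libraries. Neutrophil markers differed between the gates, all 10 of them lower in EGFP+ IMs, with sums of 2013 to 2758 CPM in EGFP+ IMs and 4592 to 6075 CPM in EGFP- IMs. Alveolar macrophage markers ran the other way, with 10 of 18 tested higher and none lower, and sums of 3643 to 5134 CPM in EGFP+ IMs and 2977 to 3190 CPM in EGFP- IMs. The part of either in these results was not tested.

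**Figure D2:**
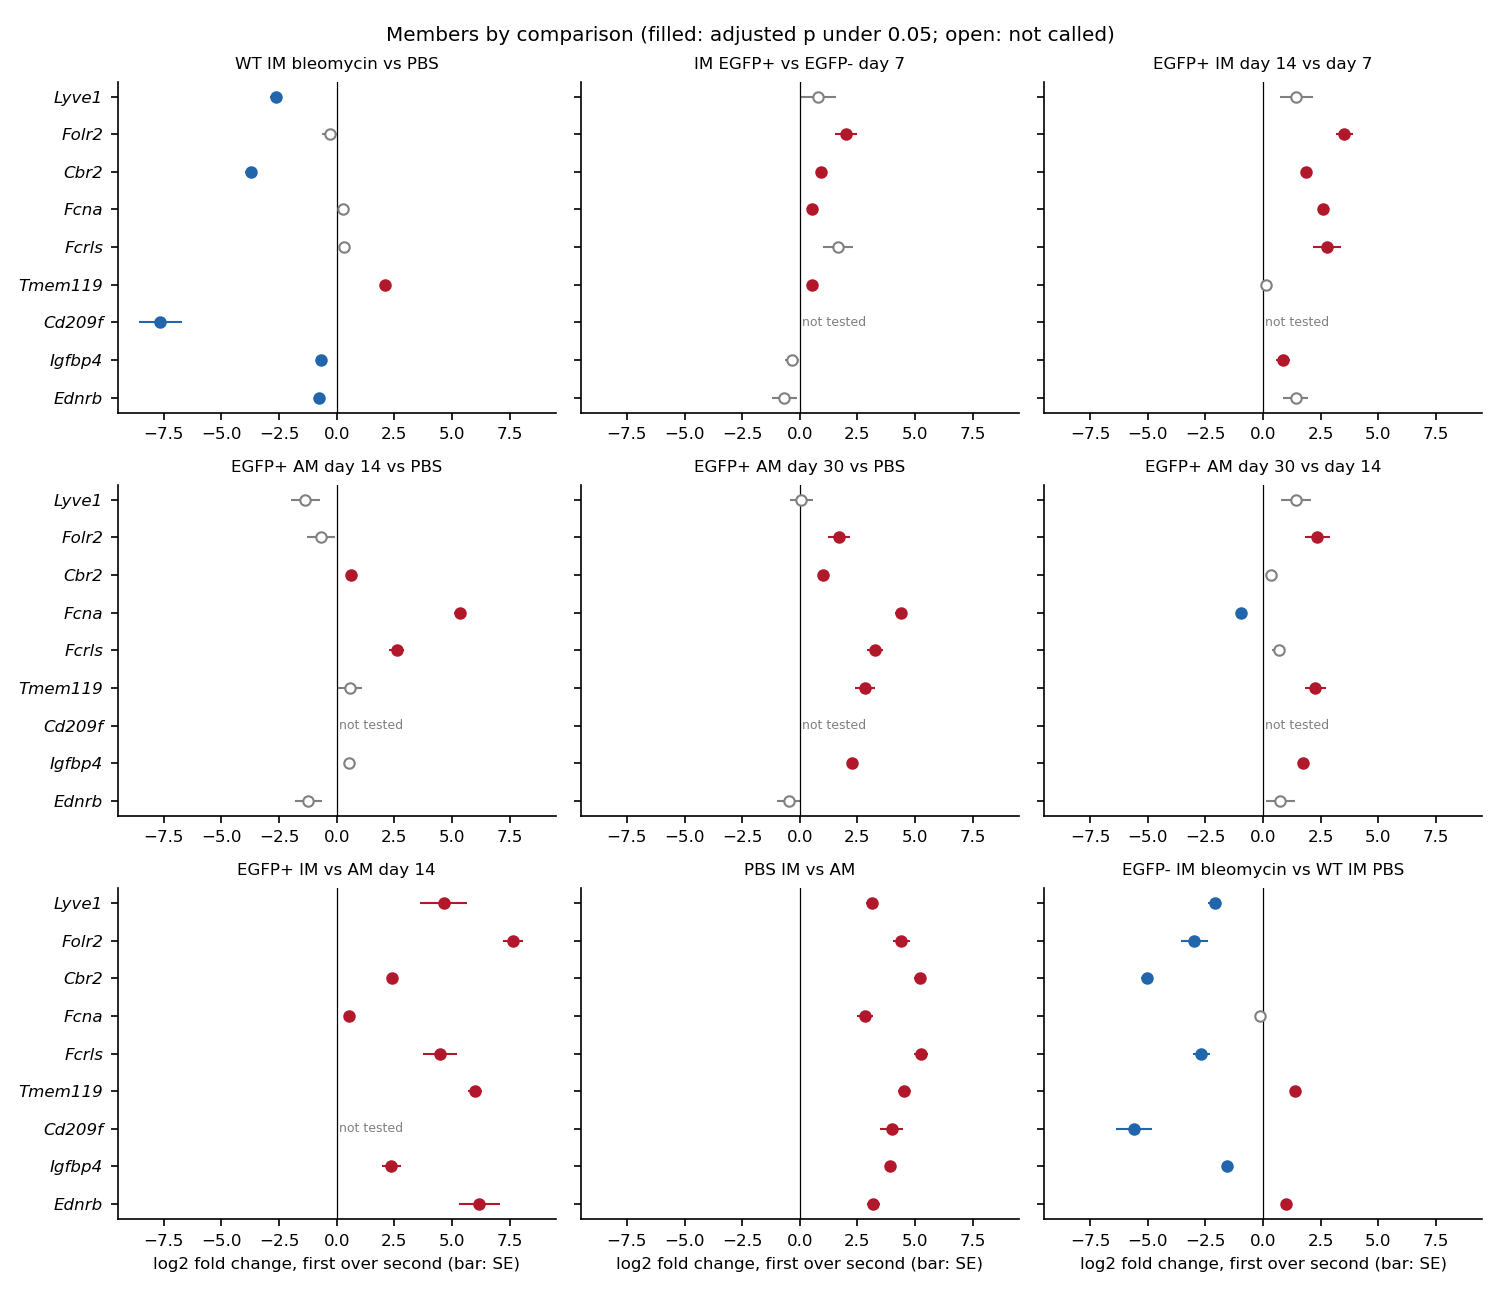
Log2 fold change of each gene (horizontal axes, first-named group over second, bars 1 SE) in the 9 comparisons, 3 libraries against 3; filled points have an adjusted p under 0.05, red higher and blue lower, and open points were not called. In wild-type IMs after bleomycin the genes lie on both sides of 0, and in the day 14 against day 7 comparison of EGFP+ IMs none lies clearly below it.

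EGFP+ IMs at day 14 held more of 5 of the 8 tested genes than EGFP+ IMs at day 7, and less of none. Of all 14967 genes, 25.3% were called higher and 26.9% lower. The median log2 fold change was 1.64 for the 8 genes and 0 for all genes. The groups came from separate tables, so that table and day cannot be told apart, and the scaling of the fit moved all log2 fold changes by 0.223 relative to total counts.

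Folr2 had 87.9, 45.9 and 50.5 CPM at day 14, against 5.49, 8.25 and 4.71 CPM at day 7. The log2 fold change, 3.53 ± 0.37 (SE, edgeR adjusted p = 7.6e-05), was the largest of the 8. Gm10602, the antisense gene that overlaps Folr2, averaged 49.8 ± 14.3 CPM at day 14 and 11.6 ± 0.361 CPM at day 7. Whether counting used strand is not stated, so reads of the pair cannot be told apart. Fcrls had 80.3, 174 and 340 CPM at day 14, against 19.5, 52.8 and 31.3 CPM at day 7 (2.79 ± 0.62, edgeR adjusted p = 0.00661). Every day 14 library lay above every day 7 library for both receptors.

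Fcna, the ficolin gene, had 27.8, 27.4 and 20.3 CPM at day 14, against 5.05, 4.95 and 4.47 CPM at day 7 (log2 fold change 2.60 ± 0.15, edgeR adjusted p = 1.9e-07). Its antisense neighbour Fcnaos had 7.57 ± 1.64 CPM at day 14 and 1.24 ± 0.388 CPM at day 7, with the same limit on strand. Cbr2 had 64.7, 50.2 and 51.7 CPM at day 14, against 13.7, 18.7 and 21.6 CPM at day 7 (1.84 ± 0.15, edgeR adjusted p = 2.1e-06). Epithelial markers went the other way, with 8 of 11 lower, sums of 34.2 to 62.2 CPM at day 14 and 90.5 to 209 CPM at day 7, and Scgb1a1 at 1.39 CPM at day 14 and 46.8 CPM at day 7. Cbr2 at day 14 still lay below the wild-type PBS IM level of 312 ± 79.1 CPM, a pair that was not tested.

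**Figure D3:**
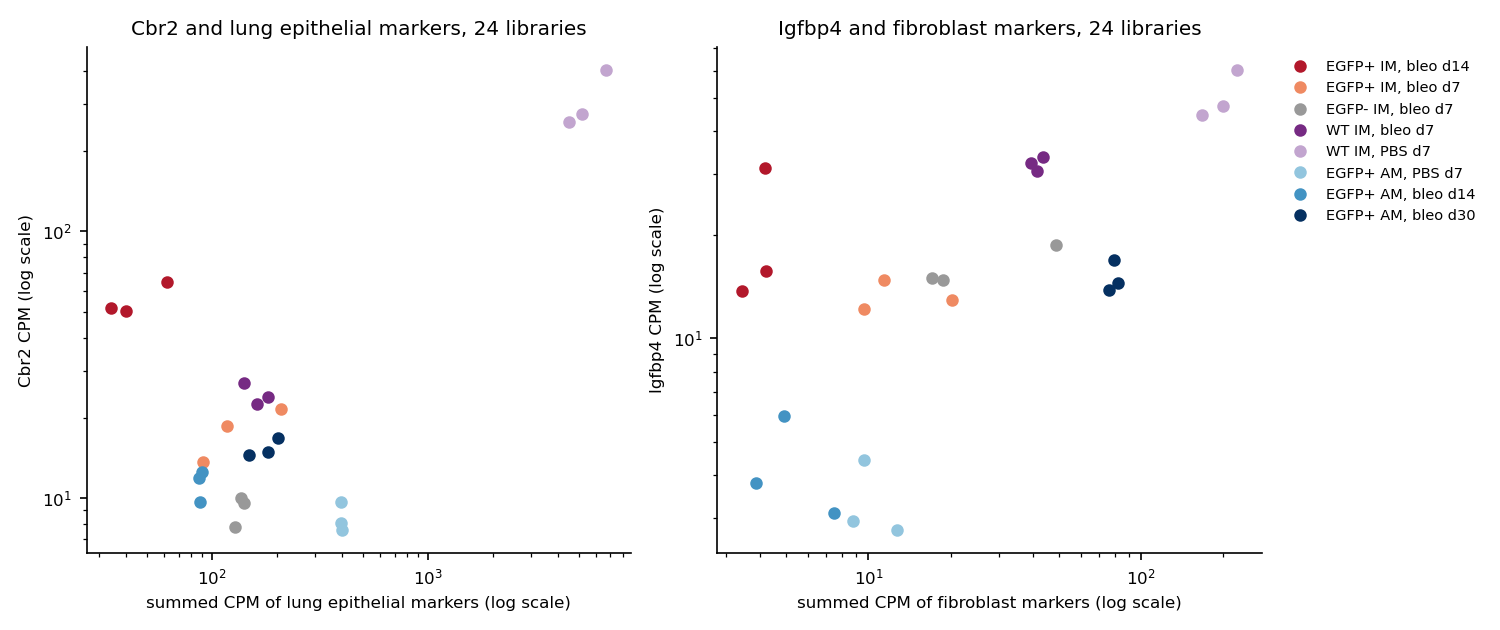
CPM of Cbr2 against the summed CPM of 11 lung epithelial markers (left) and of Igfbp4 against that of 10 fibroblast markers (right), both axes on log scales, 1 point per library. Wild-type PBS IMs were high on both axes. Day 14 EGFP+ IMs had 50.2 to 64.7 CPM of Cbr2 and the lowest epithelial sums. The part of other cells in either gene was not tested.

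The other 4 genes were less uniform at day 14. Tmem119 had 52.5, 28.7 and 36.4 CPM at day 14, against 45.9, 42.7 and 35.7 CPM at day 7, with overlap (log2 fold change 0.13 ± 0.17, edgeR adjusted p = 0.556). Lyve1 had 11.4, 4.98 and 0.799 CPM at day 14, against 2.62, 1.39 and 3.04 CPM at day 7 (1.44 ± 0.71, edgeR adjusted p = 0.116). Ednrb had 46.6, 14.9 and 7.93 CPM at day 14, against 12.1, 8.25 and 8.81 CPM at day 7 (1.42 ± 0.53, edgeR adjusted p = 0.054). For both, the third day 14 library was the lowest of the 6, and without it Lyve1 (1.92, edgeR adjusted p = 0.00136) and Ednrb (1.78, edgeR adjusted p = 0.0122) were called. Ednrb was also called without the second (1.603, edgeR adjusted p = 0.0472), and both were called when all 24 libraries shared 1 fit (edgeR adjusted p = 0.0193 for Lyve1 and 0.00496 for Ednrb). Igfbp4 had 15.7, 13.7 and 31.3 CPM at day 14, against 12.2, 14.8 and 12.96 CPM at day 7, so that 1 library stood out (0.85 ± 0.30, edgeR adjusted p = 0.0377). Without it the log2 fold change was 0.30 (edgeR adjusted p = 0.092), and the call was also lost without any 1 of the day 7 libraries. It was lost as well with total-count scaling (edgeR adjusted p = 0.0845), without the filter on low counts (0.157) and in a fit of the 2 groups alone (0.0766).

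The 3 day 14 libraries differed among themselves in which resident gene they held. The highest Lyve1 value was 14.2 times the lowest, which was wider than for 99.96% of 9895 genes in these libraries. The ratio was 5.87 for Ednrb and 4.23 for Fcrls, but 1.37 for Fcna and 1.29 for Cbr2. The first library was highest for Lyve1, Ednrb, Folr2, Cbr2, Fcna and Tmem119 and lowest for Fcrls. The third was highest for Fcrls and Igfbp4 and lowest for Lyve1, Ednrb and Fcna. Other resident macrophage genes summed to 7675 CPM in the first, 4686 in the second and 3982 in the third, the order of Lyve1 and Ednrb. Mrc1 alone ranged from 757 to 2852 CPM in these libraries, so this sum does not speak for each gene of its list. Nor is it particular to IMs, as it averaged 2398 CPM in PBS IMs and 3785 CPM in PBS AMs. Of its 23 genes tested between those groups, 16 were higher in IMs and 5 were lower. Pan-interstitial and MHC class II genes summed to 13586 CPM in the first, 24026 in the second and 28575 in the third. Classical monocyte markers summed to 16471 CPM in the first, 36248 in the second and 48965 in the third, the order of Fcrls. That sum does not speak for each gene of its list. Its mean was 33895 CPM at day 14 and 14556 CPM in EGFP+ IMs at day 7, while 2 of the 13 genes were called higher and 6 lower. Besides the other resident genes, sums in the order of Lyve1 and Ednrb included those of mural cell markers (70.6 CPM in the first, 51.9 in the second and 32.3 in the third). They also included lung epithelial markers (62.2, 39.96 and 34.2 CPM) and alveolar macrophage markers (4949, 4640 and 4088 CPM). The sum of Spp1 and Siglecf, genes of the sort, also had that order, at 7619, 5783 and 4314 CPM. Spp1 made up nearly all of it, at 4304 to 7616 CPM, and Itgam is not in this sum. Lymphatic endothelial markers summed to 8.29 CPM in the first, 15.6 in the second and 27.8 in the third, with Prox1 at most 0.192 CPM and Mmrn1 and Gp2 at 0. Blood endothelial markers summed to 30.7 CPM in the first, 73.0 in the second and 48.6 in the third. The part of any of these in the spread of the resident genes was not tested.

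**Figure D4:**
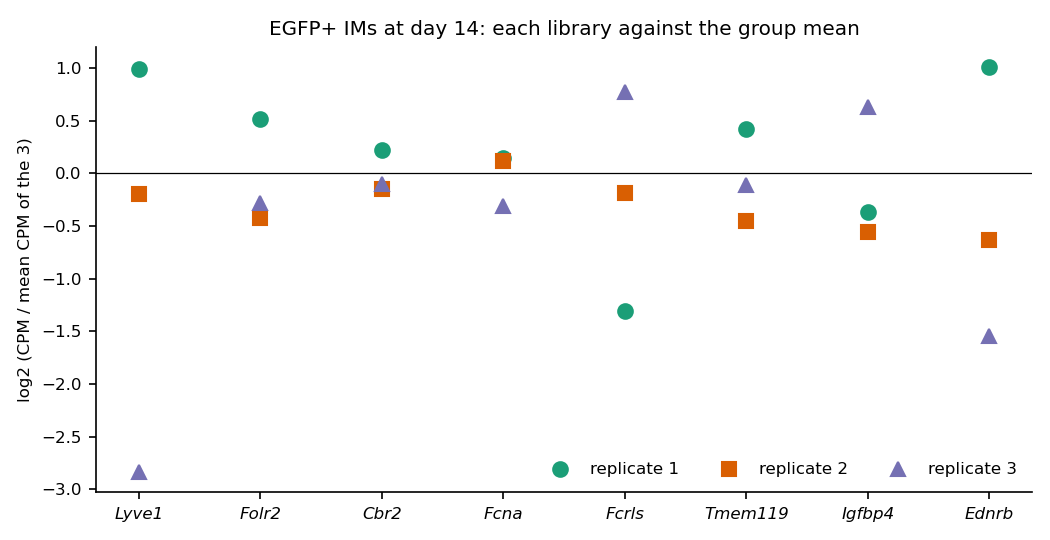
Log2 ratio of the CPM of each day 14 EGFP+ IM library to the mean of the 3 (vertical axis) for 8 genes, with replicate 1 as circles, 2 as squares and 3 as triangles; Cd209f had no count. Lyve1 and Ednrb were highest in replicate 1 and lowest in replicate 3, and Fcrls ran in the opposite order.

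The wider resident list moved with the 5 genes at day 14, with 13 of 23 tested higher and 3 lower. Slc40a1, the iron exporter, fell to 1.92 ± 0.411 CPM at day 14, against 15.4 ± 2.002 CPM at day 7. All 10 neutrophil markers were lower, with sums of 133 to 202 CPM at day 14 and 2013 to 2758 CPM at day 7, and their part in these results was not tested. Of 15 tested relatives and partners, 9 fell and Dcxr alone rose. Edn1, a ligand of Ednrb, had 0.523 ± 0.426 CPM at day 14 and 5.31 ± 0.422 CPM at day 7. Igf1r, the receptor of the growth factors that Igfbp4 binds, had 11.1 ± 3.63 CPM at day 14 and 55.6 ± 5.52 CPM at day 7. Ednra, the other endothelin receptor gene, was not called, at 0.805 ± 0.853 CPM at day 14 and 0.336 ± 0.124 CPM at day 7.

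In the alveolar gate, Fcna was the gene that changed most. It had 0.420, 0.814 and 0.274 CPM in EGFP+ AMs after PBS, 18.0, 16.5 and 21.9 CPM at day 14 after bleomycin and 9.23, 11.2 and 10.6 CPM at day 30. The log2 fold change over PBS was 5.34 ± 0.25 at day 14 (SE, edgeR adjusted p = 2.1e-11) and 4.40 ± 0.26 at day 30 (edgeR adjusted p = 4.3e-10), and day 30 was below day 14 (-0.94 ± 0.18, edgeR adjusted p = 5.8e-04). Its day 14 level in AMs was above that of every IM group except the EGFP+ IMs of day 14. Both comparisons over PBS span the 2 tables and share the PBS libraries, so that table and treatment cannot be told apart, and the scaling of the fit moved log2 fold changes by 0.186 at day 14 and 0.115 at day 30.

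At day 14, 3 of the 8 tested genes were higher in AMs than after PBS, beside 27.3% of the 14706 genes tested, and none was lower, beside 27.6%. Fcrls had 9.17, 14.9 and 5.63 CPM at day 14, against 2.14, 1.51 and 1.87 CPM after PBS (log2 fold change 2.60 ± 0.35, edgeR adjusted p = 5.0e-05). Cbr2 averaged 11.4 ± 1.498 CPM at day 14 and 8.42 ± 1.08 CPM after PBS, a smaller difference (0.62 ± 0.15, edgeR adjusted p = 0.00222). Of 16 pan-interstitial and MHC class II genes, 12 were higher and 2 lower at day 14. They included the genes of complement component C1q, with C1qb at 535 ± 110.6 CPM at day 14 and 12.5 ± 4.53 CPM after PBS. All 8 B cell markers were lower, with sums of 45.4 to 60.1 CPM at day 14 and 1556 to 1797 CPM after PBS, as were 9 of 11 epithelial markers, at 86.9 to 89.7 CPM at day 14 and 394.5 to 399.9 CPM after PBS. The part of these in the results of the 3 genes was not tested. At day 30, 6 of the 8 were higher than after PBS, beside 24.8% of genes, and none was lower, beside 23.1%. They were Fcna, Fcrls, Cbr2, Folr2, Tmem119 and Igfbp4. Tmem119 had 2.37, 2.99 and 4.47 CPM at day 30, against 0.420, 0.244 and 0.878 CPM after PBS (2.83 ± 0.44, edgeR adjusted p = 5.4e-05). Folr2 averaged 1.75 ± 0.155 CPM at day 30 and 0.592 ± 0.228 CPM after PBS (1.69 ± 0.47, edgeR adjusted p = 0.00694). The day 7 EGFP+ IMs had more of both, at 41.4 ± 5.21 CPM of Tmem119 and 6.15 ± 1.86 CPM of Folr2, a pair of groups that was not tested. Itgam was also higher in AMs, at 26.1 ± 4.18 CPM at day 30 and 9.20 ± 2.41 CPM after PBS (log2 fold change 1.63 ± 0.20, edgeR adjusted p = 7.1e-06). Of the tested markers, 8 of 9 of T and NK cells and 6 of 9 of neutrophils were higher, and none was lower. Of 8 B cell markers, 5 were lower and none was higher. Their part in the results of the 6 genes was not tested.

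Igfbp4 had 13.8, 16.9 and 14.5 CPM in AMs at day 30, against 2.94, 2.77 and 4.44 CPM after PBS (log2 fold change 2.28 ± 0.23, edgeR adjusted p = 3.3e-07). Fibroblast markers moved with it, all 7 of those tested higher at day 30, with sums of 76.4 to 82.1 CPM at day 30 and 8.77 to 12.7 CPM after PBS, none of the 10 at 0. Their part in the Igfbp4 result was not tested. From day 14 to day 30, within 1 table, Folr2, Tmem119 and Igfbp4 were higher and Fcna lower, beside 19.6% of genes higher and 18.7% lower. B cell markers also differed, all 8 higher, with sums of 987 to 1340 CPM at day 30 and 45.4 to 60.1 CPM at day 14, as did all 7 fibroblast markers tested. Itgam was higher too, at 26.1 ± 4.18 CPM at day 30 and 7.32 ± 1.98 CPM at day 14 (1.76 ± 0.21, edgeR adjusted p = 1.2e-05). Of 9 tested neutrophil markers, 8 were higher and 1 was lower. The part of these in the results was not tested. Lyve1, Ednrb and Cd209f stayed at 1.21 CPM or less in every AM library, and Cd209f was not tested in these comparisons.

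At day 14 both EGFP+ gates came from injured knock-in lungs and from 1 table. All 8 tested genes were higher in IMs than in AMs, beside 10.7% of the 13793 genes tested that were higher and 10.1% that were lower. As after PBS, this is no check of the label, since the genes were chosen with earlier results of these data known. Of tested markers, 4 of 7 of neutrophils and 3 of 7 of B cells were higher, and none was lower. Of 20 alveolar macrophage markers, 16 were lower and 1 was higher. The part of these in the results was not tested. The median log2 fold change was 4.57 for the 8 and 0.01 for all genes. Folr2 had 87.9, 45.9 and 50.5 CPM in IMs, against 0.674, 0.149 and 0.130 CPM in AMs (7.64 ± 0.44, edgeR adjusted p = 8.6e-06). Tmem119 had 52.5, 28.7 and 36.4 CPM in IMs, against 0.876, 0.669 and 0.389 CPM in AMs (6.02 ± 0.30, edgeR adjusted p = 7.4e-07). The gates were separate by a wide margin for both. Fcna was the exception in size, with 27.8, 27.4 and 20.3 CPM in IMs, against 18.0, 16.5 and 21.9 CPM in AMs, and the libraries overlapped (0.53 ± 0.17, edgeR adjusted p = 0.0498). Its call was lost without 4 of the 6 libraries, with log2 fold changes of 0.42 to 0.50 (edgeR adjusted p 0.0578 to 0.185), by DESeq2 (adjusted p = 0.0586) and with total-count scaling (edgeR adjusted p = 0.129). Lyve1 was called (4.64 ± 1.03, edgeR adjusted p = 0.0185), but not without any 1 of the AM libraries (edgeR adjusted p 0.0696 to 0.074). Fcrls was called (4.49 ± 0.73, edgeR adjusted p = 0.0108), but not with the replicate number as a block (4.25, edgeR adjusted p = 0.0798).

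Over the 8 groups, the order of levels differed from gene to gene. Cbr2, Igfbp4, Lyve1 and Cd209f had their highest mean in wild-type PBS IMs, Folr2, Fcrls, Fcna and Ednrb in EGFP+ IMs at day 14, and Tmem119 in wild-type bleomycin IMs. The libraries of the top group overlapped those of the second for Lyve1, Fcrls, Fcna and Ednrb, and lay above them for Folr2, Cbr2, Tmem119, Cd209f and Igfbp4. For Tmem119 the second group was EGFP+ IMs at day 7, at 41.4 ± 5.21 CPM, against 50.1 ± 2.47 CPM in wild-type bleomycin IMs. Summed over the 9 genes, EGFP+ IMs at day 14 had 429 ± 96.5 CPM and wild-type PBS IMs 476 ± 113.5 CPM, with different leading genes: Fcrls made up 46.2% of the sum in EGFP+ IMs at day 14 and Cbr2 65.6% in wild-type PBS IMs. Across the 8 group means, which share tables and depth, the log2 CPM of Folr2 and Fcrls correlated at r = 0.93 and that of Tmem119 and Ednrb at r = 0.88, while Fcna reached at most 0.56 with any other of the 9.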

How the data were processed

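The values are the authors' deposited counts, whole reads per gene without normalization, in a pair of tables. The submitters' processing notes name HISAT2 2.1.0, featureCounts 1.6.3, Trimmomatic 0.38, FastQC 0.11.5, SAMtools without a version, and the build GRCm38. The annotation release and the strand setting are not given in the sources used here. Tables of 49585 genes (15 libraries used) and 55487 genes (9 libraries) were joined by gene ID. The shared genes hold at least 99.486% of each library's counts, and 90.8% of them, with 8 of the 9 genes described, have the same coordinates in both. The gene end differs for Ednrb. Another 3 count columns could be tied to none of the samples and were left out. CPM is of the total count, and RPKM uses the union of exons in GENCODE M21.

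Tests used edgeR 4.0.16 in R 4.3.3 (TMM, filterByExpr, robust quasi-likelihood F test, 2-sided, Benjamini-Hochberg over all genes of a fit, called at an adjusted p under 0.05). The SE of a log2 fold change is its size over the square root of F. The 9 reporter IM libraries shared 1 fit, as did the 9 AM libraries, and other comparisons used their 6 libraries. The test was checked on simulated data. Floors of 3 counts cover counting error only. Alternatives were DESeq2 1.42.0, total-count scaling, no filter, other sample sets, genes with equal coordinates, the replicate number as a block, and each library left out. The 9 genes, the lists and the tests were chosen with earlier results of these data known. Besides the 9 genes and their relatives, up to 2 genes of a list with the smallest p were named (1 such gene is not reported here), and 3 genes per member with the most similar pattern. Scgb1a1, Prox1, Mmrn1, Gp2, Col13a1 and C1qb were named after their values were seen. No promoter search used more than the 250 bases before the RefSeq starts.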

Additional observations from a re-analysis of the deposited data

How the results depend on the processing

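Of 876 log2 fold changes of the 9 genes under alternatives, 809 kept their direction and side of the threshold, 33 lost the call, 26 gained one and 8 changed sign. None of the 8 was a called gene. Bleomycin over PBS in wild-type IMs was 0.092 for Folr2 without the first PBS library, and -0.508 to 0.092 over all left-out libraries. Day 14 over day 7 in EGFP+ IMs was -0.081 for Tmem119 with total-count scaling and -0.086 to 0.278 with a library left out. Day 30 over PBS in AMs was -0.044 for Lyve1 with total-count scaling, -0.014 with the replicate block and -0.421 to 0.339 with a library left out. EGFP- IMs over wild-type PBS IMs was -0.266 to 0.001 for Fcna with a library left out.

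The counts of called genes moved as follows, and the cause was not tested. In wild-type IMs, 2 genes were higher with the replicate block, and 1 to 2 with a library left out. Between the EGFP gates, 1 gene was lower in a fit of the 2 groups alone and with the replicate block, 1 to 4 were higher with a library left out, and 3280 to 4221 of all genes were called, beside 5206. In AMs at day 14, 2 genes were lower than after PBS with total-count scaling (Lyve1 and Ednrb), and 0 to 1 with a library left out. Between IMs and AMs at day 14, 5906 of all genes were called in 1 fit of all libraries, beside 2863, and 1857 to 3374 with a library left out.

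The labels give the groups the same replicate numbers, but same-numbered libraries deviated little together. Correlations of their deviations from the group means lay between -0.03 and 0.18. The highest was in the comparison of IMs with AMs at day 14, whose 3 pairs had 0.18, 0.09 and 0.12. The labels do not say whether those gates came from the same mice, so pairing there cannot be settled. The block was used in no main fit. With it, Fcrls was called higher in wild-type bleomycin IMs (0.36, edgeR adjusted p = 0.014) and at day 30 over day 14 in AMs (0.71, edgeR adjusted p = 0.0159). Between the EGFP gates Lyve1 (0.84, edgeR adjusted p = 0.0402) and Ednrb (-0.64, edgeR adjusted p = 0.00227) were called, and the calls of Igfbp4 between the days in EGFP+ IMs (0.73, edgeR adjusted p = 0.0815) and of Fcrls between IMs and AMs at day 14 (4.25, edgeR adjusted p = 0.0798) were lost. Depth limits Cd209f, which has 71 counts in its highest group.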

Other observations

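Genes with the pattern most like each of the 9 were sought by Pearson correlation of log2 (mean CPM + 0.5) over the 8 group means, among 8826 or 8827 genes with equal coordinates in both tables and at least 5 CPM in a group, without predicted genes and pseudogenes. These are descriptions of 8 points that share tables and libraries. The nearest to Folr2 were Stard8 (r = 0.978), Pf4, the platelet factor 4 gene (0.960), and the chemokine gene Ccl8 (0.944). The mean of Pf4 was 179 CPM in EGFP+ IMs at day 14 and 2.08 CPM in AMs at day 14. The nearest to Fcrls were Hpgds (0.979), which encodes the haematopoietic prostaglandin D synthase, Olfml3 (0.966) and Blnk (0.959). Olfml3, like Fcrls and Tmem119 known from mouse microglia, averaged 74.3 CPM in EGFP+ IMs at day 14 and 1.04 CPM in AMs after PBS.

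The nearest to Tmem119 were Rilpl1 (0.989), the monocyte chemokine gene Ccl2 (0.988) and the scavenger receptor gene Stab1 (0.988). Ccl2 averaged 176 CPM in wild-type bleomycin IMs and 4.24 CPM in AMs after PBS. The nearest to Fcna were its antisense neighbour Fcnaos (0.986), the complement gene C4b (0.940) and Mpdu1 (0.936), and C4b averaged 236 CPM in AMs at day 14 and 4.89 CPM in AMs after PBS. Those of Lyve1 were Retsat (0.922), Vcam1 (0.912) and Mmp13 (0.894), and those of Cbr2 were Glipr1 (0.947), Fam20a (0.935) and Gsta3 (0.929). Ednrb lay nearest to Ms4a4a (0.958), Glp2r (0.953) and Errfi1 (0.935), Igfbp4 to Loxl3 (0.960), Kank2 (0.959) and Dnaaf3 (0.955), and Cd209f to Enpep (0.992), Irx2 (0.989) and Megf6 (0.989).

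Relatives of the 9 genes also moved in AMs at day 14 against PBS, where 3 of 14 tested rose and 9 fell. Ednra, the endothelin receptor type A gene, averaged 2.36 ± 1.03 CPM at day 14 and 0.1104 ± 0.0634 CPM after PBS (log2 fold change 4.56 ± 0.58 SE, edgeR adjusted p = 4.6e-06), while Ednrb averaged 0.321 ± 0.140 CPM at day 14 and 0.874 ± 0.447 CPM after PBS and was not called. Igf1 averaged 92.6 ± 15.1 CPM at day 14 and 26.1 ± 0.990 CPM after PBS. Cd209b fell to 0.575 ± 0.0819 CPM at day 14, against 10.1 ± 0.262 CPM after PBS.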
